A study of Mus musculus with 12 samples.

Results

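The clustered histone genes were followed in RNA-seq counts of mouse bone marrow-derived dendritic cells (DCs). A gene was included when its symbol had the form of a clustered core histone gene (the older Hist1h to Hist4h names or the newer names such as H2ac, H2bc, H3c and H4c with a number) and it had at least 30 counts over all libraries. Of 60 genes with such a symbol, 53 met this minimum, among 55471 genes in the table. There were 14 H2A, 16 H2B, 11 H3 and 12 H4 genes, of which 45 lie on chromosome 13 and 8 on chromosome 3. No H1 gene was included, since the linker histone genes carry symbols of another form (H1f1 to H1f5), and these are described separately. The 7 genes under the minimum were H2ac1, H2ac14, H2ac18, H2ac23, H2ac24, H2bc1 and H3c14. One of the included H2A genes, H2ac5-ps, is annotated as a pseudogene.

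All libraries came from bone marrow of female C57BL/6 mice that was grown with granulocyte-macrophage colony-stimulating factor. A retrovirus brought in a human CD8 reporter, on which the cells were sorted, and a stable short hairpin RNA (shRNA), so that the knockdown is partial. The shRNA was directed against firefly luciferase (shControl) or against Ppargc1b (shPpargc1b), the gene of PGC-1β, a transcriptional co-activator of mitochondrial genes. Cells of each kind were either unstimulated or given IFN-β (interferon-β) for 6 h. Each of the 4 groups had 3 libraries. The labels do not say whether libraries of a group came from separate mice or cultures, so p-values measure the spread between these libraries, which may be technical.

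Core histones H2A, H2B, H3 and H4 package DNA into nucleosomes. The clustered genes make them in bulk during S phase, and most of their mRNAs end in a conserved stem-loop, bound by SLBP, in place of a poly(A) tail. Libraries made by selecting poly(A) therefore miss most of these mRNAs, whereas libraries made by depleting ribosomal RNA, as here, can hold them. Replacement histones such as H3f3b are made throughout the cell cycle from polyadenylated mRNAs.

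The stem-loop was searched in the annotated transcripts of the mouse genome as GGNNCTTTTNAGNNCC on the transcript strand. It was found in 33 of the 53 genes (62.3%) and in 89 of 55450 genes of the whole annotation (0.161%). All 33 were among the 42 histone genes with an annotated 3′ untranslated region (UTR). The other 11 had no annotated 3′ UTR in which it could be found. The element took 6 forms, each given here from the histone gene with the most counts among those that have it, because the forms differed between histone types. Capitals mark the element, and 5 transcript bases are shown on each side.
H4c4: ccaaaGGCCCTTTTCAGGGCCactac
H4c14: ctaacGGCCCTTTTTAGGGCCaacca
H4c2: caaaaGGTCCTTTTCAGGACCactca
H2bc8: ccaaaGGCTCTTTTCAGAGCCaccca
H3c6: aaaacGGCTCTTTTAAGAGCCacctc
H2ac20: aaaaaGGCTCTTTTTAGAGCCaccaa
The forms of H4c4, H4c14 and H4c2 were found in 6, 2 and 2 genes, all of them H4. The form of H2bc8 was found in 17 genes (6 H2A, 7 H2B and 4 H3), that of H3c6 in 5 (2 H2B and 3 H3) and that of H2ac20 in that gene alone. Of the 33 genes, 14 had over 100 annotated bases beyond the element, which leaves room for a longer transcript than the stem-loop end. H4c4, with 770 such bases, and H4c14, with 1257, were among them.

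Promoters, taken as 250 bases before to 50 bases after the RefSeq start on GRCm38.p6, could be matched by symbol for 46 of the 53 genes. The CCAAT box (CCAAT, either strand) was present in all 13 H2A, 14 H2B and 9 H3 promoters but in 27.3% of 11 H4 promoters, against 37.4% of 32851 promoters of all genes. The octamer (ATGCAAAT, either strand) was in 38.5% of H2A and 42.9% of H2B promoters, in 0% of H3 and H4 promoters and in 1.74% of all promoters. A TATA box (TATAAA, either strand) was in 69.2% of H2A, 42.9% of H2B, 44.4% of H3 and 72.7% of H4 promoters, against 13.6% of all. E2F motifs (TTTGGCGC or TTTCGCGC, either strand) were in 38.5% of H2A and 28.6% of H2B promoters, in 0% of H3 and H4 promoters and in 0.813% of all. The 180 bases before the starts of H2bc8 (chr13:23571220-23571399, plus strand) and H4c4 (chr13:23581388-23581567, plus strand) show the difference between an H2B promoter with an octamer and an H4 promoter without it, with matches in capitals.
H2bc8: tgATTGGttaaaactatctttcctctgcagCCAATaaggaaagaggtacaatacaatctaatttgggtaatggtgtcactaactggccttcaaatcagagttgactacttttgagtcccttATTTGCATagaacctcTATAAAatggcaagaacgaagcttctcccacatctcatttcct
H4c4: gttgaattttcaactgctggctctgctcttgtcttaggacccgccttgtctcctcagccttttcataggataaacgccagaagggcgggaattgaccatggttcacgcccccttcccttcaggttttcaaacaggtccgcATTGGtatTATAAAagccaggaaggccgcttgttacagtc
In H2bc8 the octamer lies on the other strand at position -59 from the start, and the TATA box begins at -43. The printed H2bc8 bases also fill the gap to H2ac8, which is read in the opposite direction. A total of 10 H2A genes stood head to head with an H2B gene in this way, with 175 to 301 bases between them.

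Libraries held 49919648 to 77726101 counts, of which the 53 histone genes took 0.0312% to 0.0595% (19235 to 35381 counts). Ppargc1b, the gene targeted by the shRNA, averaged 34.5 ± 1.94 counts per 1e6 counts (CPM, mean ± SD, n = 3) for shControl and 19.4 ± 0.851 for shPpargc1b cells without IFN-β, and 27.8 ± 3.93 and 18.65 ± 2.83 with it. The log2 fold change of the knockdown was -0.83 ± 0.105 (SE; edgeR adjusted p = 3.25e-05) in unstimulated cells, and under IFN-β it was -0.57 ± 0.11 (adjusted p = 0.000945). Of 9 dendritic-like markers all were detected, with the integrin gene Itgax at a mean of 948.5 to 1154 CPM in the 4 groups, although the 9 macrophage-like markers also summed to 2493 to 3649 CPM per library. The 9 lymphocyte-like markers summed to at most 4.60 CPM per library, the 8 erythroid-like markers in the table to at most 0.360 CPM and the 9 mast cell or basophil-like markers to 9.29 to 27.95 CPM (a mean of 13.8 in shControl and 25.4 in shPpargc1b cells without IFN-β). Neutrophil-like markers summed to 45.5 to 143 CPM, mostly from S100a8 and S100a9. Their sum averaged 66.8 CPM with shControl and 105.8 CPM with shPpargc1b in unstimulated cells, but in the second run it was 83.07 and 82.8 CPM. S100a8 alone of these 9 was called for that knockdown comparison (0.83, adjusted p = 0.0322), and Ly6g, Mpo and Elane had negative fitted values.

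Several cell type markers were called higher or lower with the knockdown. Among all genes 12.4% rose and 11.1% fell with shPpargc1b in unstimulated cells. There 5 of 9 dendritic-like markers rose and 0 fell, with log2 fold changes of 1.32 for Ccr7 (adjusted p = 1.18e-08) and 0.90 for Cd86 (adjusted p = 4.68e-09). The median of the 9 was 0.28, and 1 was negative (-0.21). Of 9 macrophage-like markers 3 fell and 0 rose, with -1.51 for Mrc1 (adjusted p = 1.99e-07). Their median was -0.02, with 6 of 9 negative and a highest value of 0.18. The progenitor-like markers summed to 207 to 318 CPM, mostly from Spi1, which did not change with the knockdown beyond the threshold (adjusted p = 0.642), whereas 3 of the 7 tested rose, namely Cd34 (2.15, adjusted p = 3.01e-05), Sox4 (0.98, adjusted p = 2.72e-05) and Meis1 (0.365, adjusted p = 0.0217). The lowest of the 7 progenitor-like values was -1.13, not past the threshold. Of the 8 mast cell or basophil-like markers tested 3 rose (Kit, Gata2 and Hdc) and 0 fell. These genes are named after their values were seen. With IFN-β in shControl cells 5 of 9 macrophage-like and 3 of 9 dendritic-like markers rose and 0 fell. Of the 7 progenitor-like markers 1 rose and 2 fell, where 23.7% of all genes rose and 24.6% fell. The part of cells of these kinds in the histone values was not tested. In bulk RNA, fewer cells of a kind and less RNA per cell cannot be told apart.

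H4 genes made up the largest share of the histone signal. They gave 47.1% to 51.8% of the summed histone CPM of a library, H2B genes 26.5% to 29.8%, H3 genes 13.5% to 14.9% and H2A genes 7.69% to 9.81%. Such shares depend on the number and length of the genes as well as on their level. H4c4 (Hist1h4d) had the highest CPM, from 48.9 to 73.2 with a mean of 61.5, and per kilobase (kb) of annotated exon it stood at 54.1 CPM per kb. On that per-length scale H4c6 was at 57.1, H4c8 at 52.9, H2bc8 at 33.3, H4c17 at 29.6, H4c3 at 29.2 and H2bc4 at 28.3 CPM per kb. The highest H2A gene was H2ac15 at 25.2 CPM per kb and the highest H3 gene was H3c6 at 22.1. At the low end, H2ac19 and H2bc22 were at 0.302 and 0.413 CPM and the pseudogene H2ac5-ps was at 0.341 CPM. In 7 of the 10 head-to-head couples the H2B gene was higher per kb than its H2A neighbour, as for H2bc8 (33.3) against H2ac8 (4.72) and H2bc4 (28.3) against H2ac6 (1.33), whereas H2ac15 (25.2) was above H2bc15 (20.3). These values depend on the annotated exon length (2482 bases for H2ac6 and 1156 for H2bc4) and on how much of each sequence is unique.

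Levels of near-identical copies are uncertain, since only read pairs with a unique place in the genome were counted. The share of 100-base stretches of a gene's annotated exons found in no gene at another place had a median of 42.0% for H2A, 63.6% for H2B, 57.1% for H3 and 74.6% for H4 genes, and 9 of the 53 genes were under 20%. H4c4, H4c14, H2bc21 and H2bc18 were at 100%, and H2ac19 was at 0%. Overlapping genes were not counted here, and 100% of the exon bases of H2bc18 lie in such genes. All 14 H2A genes and 3 others were overlapped by an annotated gene on the other strand, and the strand setting of the counting is not given in the sources used here, so reads of these partners cannot be told apart. On the same strand, H2bc6 was overlapped by Gm11398 and the linker histone gene Hist1h1e, H2ac6 by Gm24991 and H2bc18 by Gm42743. H2bc23 and H2bc24, which share most of their sequence with each other (5.16% and 13.6% unique), were counted in some libraries only. H2bc23 had 54 and 128 counts in unstimulated shPpargc1b replicates 1 and 2, 55 and 138 in IFN-β-treated shControl replicates 2 and 3, 96 in IFN-β-treated shPpargc1b replicate 2 and 0 in the other 7 libraries.

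The sum of all 53 genes was lower on average with shPpargc1b and with IFN-β, but the libraries of the groups compared overlapped. The summed level was 490, 447 and 547 CPM in unstimulated shControl replicates 1, 2 and 3, and 422, 349 and 489 CPM in unstimulated shPpargc1b replicates. With IFN-β it was 440, 419 and 496 CPM in shControl and 403, 337 and 439 CPM in shPpargc1b. Within every group replicate 2 was lowest and replicate 3 highest. Group means were 494.6 ± 50.1 and 419.8 ± 70 CPM (SD, n = 3) without IFN-β and 451.7 ± 39.97 and 393.1 ± 51.9 CPM with it, for shControl and shPpargc1b.

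This shared order followed the library codes in the labels. The codes are consecutive numbers, and each run of 4 holds 1 library of each group, which is replicate 1, 2 or 3 here. The labels do not say what a run shares. Within each of the 3 runs the summed histone level was lower in shPpargc1b than in shControl, at 0.861, 0.780 and 0.894 times without IFN-β and at 0.916, 0.804 and 0.885 times with it. It was also lower with IFN-β than without in each run, at 0.897, 0.938 and 0.908 times in shControl and 0.954, 0.967 and 0.899 times in shPpargc1b cells. The same order within runs held for the H2A, H2B and H3 sums in all 4 comparisons. The H4 sum was lower with IFN-β in shPpargc1b cells in 1 of 3 runs (1.01, 1.03 and 0.912 times).

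**Figure D1:**
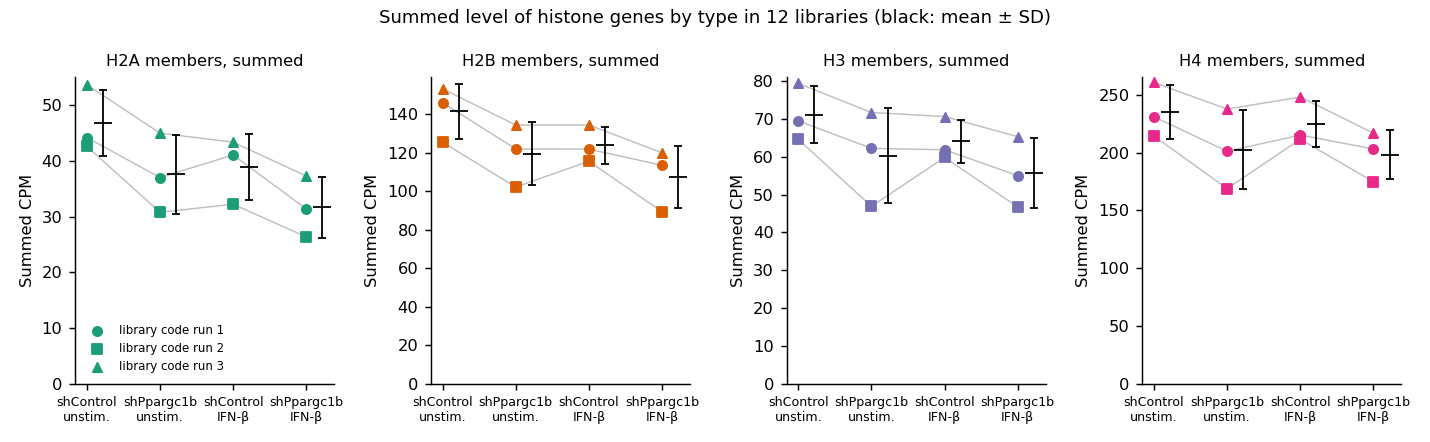
Summed CPM of H2A, H2B, H3 and H4 genes (vertical axes, from 0) in the 4 groups, with 1 point per library, a marker shape and a grey line for each run of 4 library codes, and the mean ± SD of 3 libraries in black. The line of the third run lies highest and that of the second lowest in nearly every panel and group, and all types are highest in unstimulated shControl cells within a run.

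The median spread was larger for histone genes than for tested genes in the same wide range of level, within which level was not matched. The SD of log2 CPM around the group mean had a median of 0.295 over 51 histone genes (H2bc23 and the untested H2bc24 left out), against 0.147 over the 12567 tested genes whose mean CPM lay in the same range (0.302 to 61.5). After the mean of each library code run was also taken out, the medians were 0.162 and 0.133. H4 genes spread least of the types, with a median SD of 0.201, and H2B genes most, with 0.359. The genes that varied least were H2bc21 (0.0886), H4c9 (0.0967), H2bc4 (0.106), H4c14 (0.138) and H2bc6 (0.141), and for H2bc21, H4c9 and H2bc4 the SD was nearly as large after the run means were taken out (0.0845, 0.0900 and 0.0919), whereas for H4c14 it was 0.0631. Genes with over 100 annotated bases beyond the stem-loop had a median SD of 0.214 (14 genes), against 0.311 for those with a shorter annotated end (19 genes). Level was not matched between the types or these classes. Mean CPM ran from 1.16 (H3c15) to 61.5 (H4c4) in the 14 genes and from 0.302 (H2ac19) to 24.9 (H4c8) in the 19. These SDs are descriptions and no test was made of them.

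**Figure D2:**
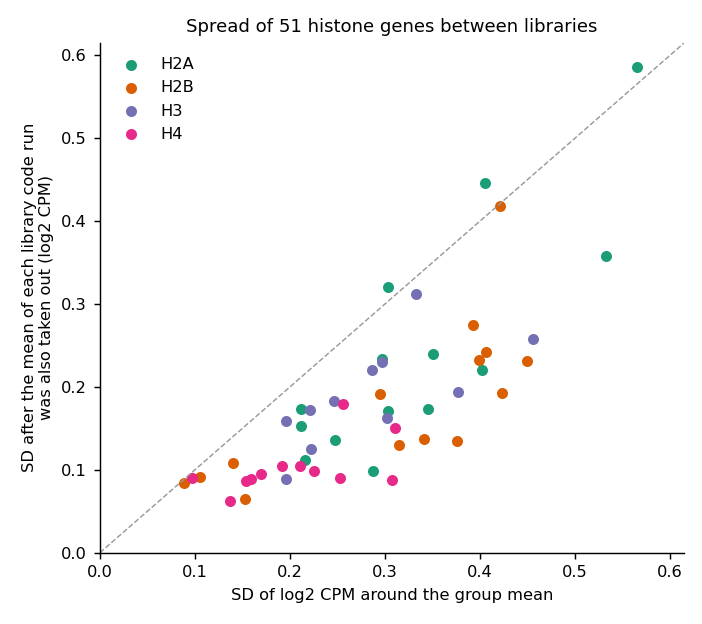
Each point is 1 of 51 histone genes, coloured by type. The horizontal axis is the SD of log2 CPM around the group means and the vertical axis the SD after the mean of each library code run was also removed, with a dashed line of equality. Most points lie under the line, with medians of 0.295 and 0.162.

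Knockdown of Ppargc1b in unstimulated cells gave lower fitted values for nearly every histone gene, few of which passed the test. Of 52 genes tested, 49 had a negative log2 fold change, against 9285 of all 18228 genes tested. The median was -0.27, against -0.005 over all genes. By the edgeR test with Benjamini-Hochberg adjustment over all genes, 1 histone gene fell and 0 rose, where 11.1% of all genes fell and 12.4% rose. Without H2bc23, whose unstimulated shControl libraries were at 0, 9 histone genes were lower and 0 higher at an unadjusted p under 0.05. The share of all genes at that unadjusted threshold was not computed. DESeq2 called 4 lower (7.69%) and 1 higher, where it called 10.6% of all genes lower and 11.7% higher. The gene that fell was H2ac7 (Hist1h2ad), an H2A gene at chr13:23574381-23574952 on the plus strand of mm10. Its level was 2.52, 2.92 and 2.32 CPM in the unstimulated shControl libraries and 1.89, 1.10 and 2.04 CPM in those with shPpargc1b, so the groups did not overlap. The difference was -0.63 ± 0.21 on the log2 scale (SE; adjusted p = 0.0414), and without shPpargc1b replicate 2 it was -0.395 (adjusted p = 0.167). The call was also lost without shControl unstimulated replicate 1 (adjusted p = 0.076) or 2 (0.14), or without shControl IFN-β replicate 2 (0.0505) or 3 (0.0534).

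The most abundant genes of each type moved less than that and did not pass the test. H4c4 (chr13:23581598-23582735, plus strand) was at 63.4, 56.8 and 69.4 CPM in shControl and 52.0, 48.9 and 65.0 CPM in shPpargc1b cells without IFN-β. The ranges overlapped, and the log2 fold change was -0.19 ± 0.10 (adjusted p = 0.191). H4c8 was at 28.3, 27.6 and 33.1 CPM against 24.9, 19.7 and 27.0 CPM, and H2bc8 at 22.96, 22.02 and 25.9 CPM against 18.8, 16.9 and 22.6 CPM. Neither gene passed the threshold, with -0.31 ± 0.11 (adjusted p = 0.0504) for H4c8 and -0.28 ± 0.10 (adjusted p = 0.0643) for H2bc8. H2bc4 differed by -0.16 ± 0.07, H3c6 by -0.24 ± 0.14, H3c7 by -0.19 ± 0.16, H3c13 by -0.28 ± 0.14, H2ac15 by -0.38 ± 0.18, H2ac4 by -0.39 ± 0.22, H2ac20 by -0.24 ± 0.17, H4c14 by -0.13 ± 0.09 and H2bc6 by -0.05 ± 0.10 on the log2 scale, none past the threshold. By type the median was -0.26 for H2A, -0.32 for H2B without H2bc23, -0.24 for H3 and -0.22 for H4 genes.

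With IFN-β present, 2 histone genes fell with shPpargc1b and 0 rose, where 12.7% of all genes fell and 11.5% rose. Without H2bc23, 10 were lower and 0 higher at an unadjusted p under 0.05, for which the share of all genes was not computed. DESeq2 called 5 lower (9.62%) and 0 higher, where it called 14.6% of all genes lower and 12.2% higher. The median over 52 genes was -0.25, against -0.01 over all genes. Of the 52, 45 were negative, against 9482 of all 18228 genes. H3c1 (Hist1h3a), an H3 gene at chr13:23761853-23762386 on the minus strand, was at 3.20, 3.20 and 3.88 CPM in IFN-β-treated shControl and 2.35, 1.75 and 2.58 CPM in IFN-β-treated shPpargc1b cells. The groups did not overlap, the log2 fold change was -0.63 ± 0.15 (adjusted p = 0.00749), and the call was kept with each library left out in turn. H2bc8 (Hist1h2bg, chr13:23571396-23572013, plus strand) was at 22.5, 20.5 and 22.97 CPM against 16.7, 15.8 and 19.6 CPM, with a log2 fold change of -0.34 ± 0.10 (adjusted p = 0.0266). Its groups did not overlap either, although the call was lost without IFN-β-treated shControl replicate 1 or 3 (adjusted p = 0.0641 and 0.0851) or shPpargc1b replicate 1 or 2 (0.0739 and 0.0828). H4c1 (-0.41 ± 0.16, adjusted p = 0.067), H4c14 (-0.25 ± 0.09, adjusted p = 0.0681) and H2ac4 (-0.58 ± 0.23, adjusted p = 0.0806) did not pass, although with a term for the run of library codes all 3 did (adjusted p = 0.00179, 0.00343 and 0.00348).

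IFN-β in shControl cells lowered 8 histone genes, and H2bc23 alone was called higher. Among all genes, 24.6% fell and 23.7% rose in this comparison. Without H2bc23, 9 histone genes were lower and 1 higher at an unadjusted p under 0.05, for which the share of all genes was not computed. DESeq2 called 7 lower (13.5%) and 1 higher, where it called 19.6% of all genes lower and 20.6% higher. The median over 52 genes was -0.23, against -0.03 over all genes. Of the 52, 43 were negative, against 9659 of all 18228 genes. Of the 8 genes, 3 encode H2A (H2ac12, H2ac21 and H2ac22), 2 encode H2B (H2bc4 and H2bc21) and 3 encode H4 (H4c1, H4c2 and H4c9), while no H3 gene passed. H2bc23 was at 0 in the 3 unstimulated shControl libraries and at 0, 1.04 and 1.94 CPM with IFN-β. That mean (0.994 CPM) is 19.2-fold a floor of 3 counts per library, but it rests on replicates 2 and 3 alone. H2bc23 passed the count filter only through the libraries in which it was seen, and 5.16% of its stretches are unique. Its call was lost in 5 of the 12 cases with a library left out (adjusted p = 0.122 without IFN-β-treated replicate 3).

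H2bc21 (Hist2h2be), an H2B gene at chr3:96221119-96223738 on the plus strand, was lower in every IFN-β-treated shControl library. It was at 8.28, 8.01 and 7.91 CPM in unstimulated shControl cells and at 6.29, 6.37 and 6.11 CPM with IFN-β, a log2 fold change of -0.37 ± 0.09 (adjusted p = 0.00263). All of its 100-base stretches are unique. H4c1 (Hist1h4a, chr13:23760692-23761230, minus strand) was at 12.7, 11.1 and 13.8 CPM without and 8.86, 8.58 and 10.2 CPM with IFN-β, with a log2 fold change of -0.44 ± 0.15 (adjusted p = 0.0237) and no overlap. The largest falls were in H2A genes of low level. H2ac22 went from 3.10, 2.75 and 5.07 CPM to 1.75, 1.91 and 2.48 CPM (-0.82 ± 0.22, adjusted p = 0.0057), H2ac21 from 1.51, 1.26 and 1.86 CPM to 0.864, 0.794 and 0.971 CPM (-0.81 ± 0.26, adjusted p = 0.0185), and H2ac12 from 1.03, 0.704 and 0.869 CPM to 0.432, 0.378 and 0.577 CPM (-0.89 ± 0.31, adjusted p = 0.0264). None of these 3 overlapped between groups. H2bc4 fell by 0.25 ± 0.07 on the log2 scale (adjusted p = 0.0112), from 38.2, 34.2 and 37.4 CPM to 29.9, 30.8 and 31.6 CPM. For H4c2, whose ranges overlapped (11.5 to 15.4 and 8.30 to 11.6 CPM), the log2 fold change was -0.42 ± 0.17 (adjusted p = 0.0455), and for H4c9 (5.93 to 6.38 and 4.99 to 5.23 CPM) it was -0.26 ± 0.10 (adjusted p = 0.0351).

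Of these 8 falls, H2bc21 and H2ac22 stayed past the threshold with each library left out (highest adjusted p = 0.0184 and 0.0363). The log2 value then ran from -0.399 to -0.334 for H2bc21 and more widely, from -0.999 to -0.52, for H2ac22. The fall of H2bc4 was lost without IFN-β-treated replicate 1 (adjusted p = 0.0623). Those of H4c1 and H2ac21 were lost without IFN-β-treated replicate 1 (0.0826 and 0.052) or 2 (0.102 and 0.0706), or unstimulated replicate 3 (0.0765 and 0.0763). H2ac12 was lost in 4, H4c2 in 5 and H4c9 in 7 of the 12 cases, with adjusted p up to 0.105, 0.2 and 0.116. Of the 3 H2A genes, H2ac12 and H2ac22 have 12.1% and 16.7% unique stretches, so their counts may miss or mix copies, while H2ac21 has 98.5%.

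In shPpargc1b cells IFN-β lowered 4 histone genes and raised 0, where 21.2% of all genes fell and 21.4% rose. Without H2bc23, 7 were lower and 1 higher at an unadjusted p under 0.05, for which the share of all genes was not computed. DESeq2 called 2 lower (3.85%) and 0 higher, where it called 18.5% of all genes lower and 20.2% higher. The median was -0.19, against -0.02 over all genes. Of the 52, 40 were negative, against 9528 of all 18228 genes. H4c1 was at 9.24, 8.72 and 12.96 CPM without and 6.26, 6.13 and 8.45 CPM with IFN-β (-0.57 ± 0.15, adjusted p = 0.00671), and H3c1 at 2.77, 3.19 and 3.15 CPM against 2.35, 1.75 and 2.58 CPM (-0.45 ± 0.15, adjusted p = 0.0278). H4c9 (-0.26 ± 0.10, adjusted p = 0.0424) and H2bc21 (-0.23 ± 0.09, adjusted p = 0.0466) were the other 2, so that H4c1, H4c9 and H2bc21 passed in both kinds of cells. H4c1 stayed past the threshold with each library left out (highest adjusted p = 0.0462). H3c1 was lost without unstimulated shPpargc1b replicate 2 or 3 (adjusted p = 0.0847 and 0.0775) or IFN-β-treated shPpargc1b replicate 2 (0.145), and H4c9 and H2bc21 were each lost in 10 of the 12 cases. H4c4 did not fall with IFN-β, with log2 differences of 0.09 ± 0.10 in shControl and 0.13 ± 0.10 in shPpargc1b cells (adjusted p = 0.475 and 0.34), and H2bc6 and H4c14 likewise had fitted values above 0 in both (0.24 and 0.17, and 0.15 and 0.04), not past the threshold. With a run term both were called higher with IFN-β in shControl cells (adjusted p = 0.0237 for H2bc6 and 0.041 for H4c14). The interaction, which is how much the knockdown difference changed under IFN-β, was called for 0 of 52 histone genes by edgeR. Among all genes 0.669% had a negative and 0.0603% a positive interaction. At an unadjusted p under 0.05 the count was 0 of 51 without H2bc23. DESeq2 called 1 negative interaction (2.04%), against 2.51% of all genes.

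**Figure D3:**
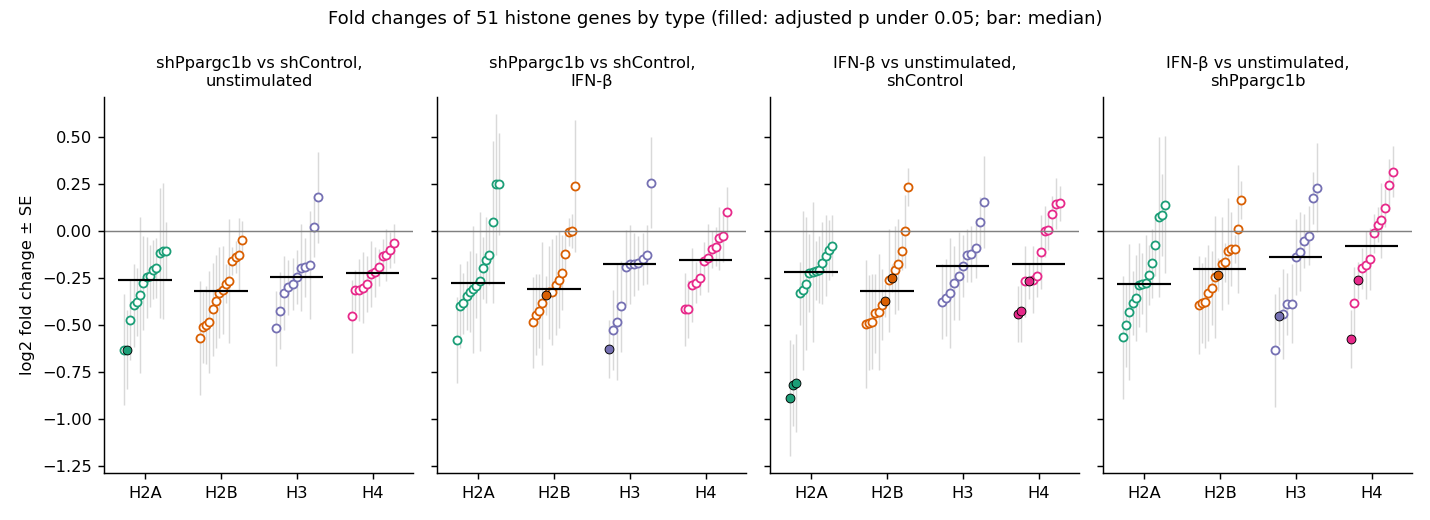
The log2 fold change of 51 histone genes (vertical axis, ± SE in grey), grouped by type along the horizontal axis, in the 2 knockdown and the 2 IFN-β comparisons, with filled points past the adjusted threshold of 0.05 and a bar at each type's median. H2bc23 is left out because its unstimulated shControl libraries were at 0. Every median lies below 0, and 15 of the plotted points are filled.

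**Figure D4:**
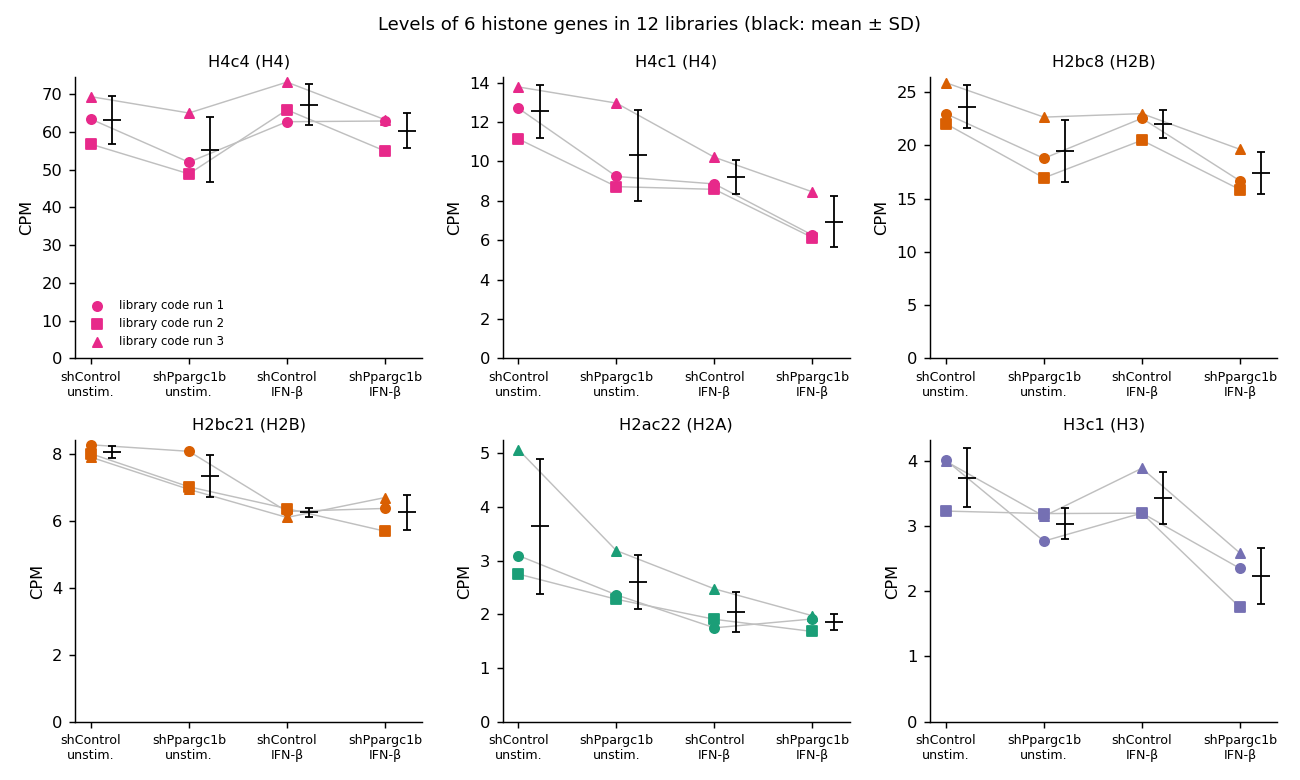
CPM (vertical axes, from 0) of H4c4, H4c1, H2bc8, H2bc21, H2ac22 and H3c1 in the 4 groups, with 1 point per library, a marker and a grey line for each run of library codes and the mean ± SD of 3 libraries in black. H4c1 and H2bc21 are lower in the IFN-β-treated libraries of both kinds of cells, whereas the ranges of H4c4 overlap between groups.

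With a term for the library code run in the fit, many more histone genes were called. A total of 21 of 52 fell with shPpargc1b in unstimulated cells (40.4%, against 13.4% of all genes) and 15 with IFN-β (28.8%, against 15.1%). For IFN-β the numbers were 16 in shControl (30.8%, against 26.3%) and 16 in shPpargc1b cells (30.8%, against 23.2%). With that term H4c8 (adjusted p = 0.00165), H2bc8 (adjusted p = 0.00167), H2ac15 (adjusted p = 0.0021), H4c4 (adjusted p = 0.0161) and H3c6 (adjusted p = 0.0292) passed for the knockdown in unstimulated cells, as did H4c2, H4c1, H2ac4, H2ac22 and H3c13 (adjusted p from 0.00476 to 0.0238). With IFN-β present, H4c8 and H2ac15 also passed for the knockdown (adjusted p = 0.00606 and 0.00666). For IFN-β, H4c8 and H2ac20 passed in both kinds of cells, H2ac15 in shControl cells, and H2bc8, H2ac4 and H2ac22 in shPpargc1b cells. The labels do not state a shared culture or day for the runs, so the counts without the term are the ones given first. Leaving out unstimulated shPpargc1b replicate 3, the library of that group with the highest histone sum, raised the lower calls in unstimulated cells from 1 to 13. The 13 were 24.5% of those tested, against 8.88% of all genes.

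The annotated 3′ end went with small differences in the fitted values. In the IFN-β comparison in shControl cells, the median log2 fold change was -0.10 for the 14 genes with over 100 bases beyond the stem-loop, -0.22 for the 19 with a shorter annotated end and -0.36 for 18 tested genes with no stem-loop in the annotated transcript. For the knockdown in unstimulated cells the medians were -0.19, -0.30 and -0.36. With IFN-β present the order differed, and the knockdown medians were -0.15, -0.32 and -0.23. For IFN-β in shPpargc1b cells they were -0.09, -0.20 and -0.26. The 8 genes on chromosome 3 had medians of -0.19 for the knockdown without IFN-β and -0.07 with it, against -0.28 and -0.26 for the 43 tested genes on chromosome 13. For IFN-β in shControl cells the medians were -0.27 and -0.24, and in shPpargc1b cells -0.10 and -0.18, on chromosomes 3 and 13. These medians are descriptions of overlapping ranges.

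Linker histone genes and other clustered histone genes with symbols of another form were similar in direction. Of 7 tested (H1f1 to H1f5, H4f16 and H2aw; H2bu2 was too low), all 7 had negative fitted values for the knockdown without and with IFN-β, with medians of -0.26 and -0.22. H1f3 and H2aw fell with shPpargc1b in IFN-β-treated cells (-0.37, adjusted p = 0.0107, and -0.45, adjusted p = 0.00598), where 12.7% of all genes fell. H2aw is named after its values were seen. H1f2, the most abundant linker gene here, averaged 122 ± 5.68 CPM without and 110.7 ± 8.62 CPM with IFN-β in shControl cells (adjusted p = 0.0802), and H1f4 was at 50.4 ± 3.48 and 47.2 ± 4.09 CPM (adjusted p = 0.446). H1f3 fell with IFN-β from 70.8 ± 2.06 CPM to a mean of 52.2 ± 2.93 (-0.44 ± 0.10, adjusted p = 0.00127), whereas H2aw rose from 4.77 ± 0.169 to 12.8 ± 2.15 CPM (1.43 ± 0.11, adjusted p = 3.21e-08). Of the 7 tested, 1 rose and 2 fell with IFN-β in shControl cells, against 23.7% and 24.6% of all genes.

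Replacement histones did not move one way with IFN-β. Of 10 tested in shControl cells, 3 rose and 3 fell, where 23.7% of all genes rose and 24.6% fell, and 7 had negative fitted values, with a median of -0.11. The 3 that fell were H2az2 (-0.70, adjusted p = 4.01e-05), H2ax (-0.53, adjusted p = 0.01) and Cenpa (-0.48, adjusted p = 0.0141), named after their values were seen. H3f3b, which encodes H3.3, rose from 247.7 ± 14.3 to 450.5 ± 16.15 CPM (by 0.86 ± 0.05 on the log2 scale, adjusted p = 2.07e-10), and Macroh2a1, a macroH2A gene, rose from 148 ± 5.02 to 226.4 ± 5.20 CPM (0.61 ± 0.05, adjusted p = 1.41e-08). H3f3a, the other H3.3 gene, was at 64.6 ± 2.46 and 64.3 ± 1.49 CPM (adjusted p = 0.899) and fell with shPpargc1b without IFN-β (-0.20 ± 0.04, adjusted p = 0.00193). The sum of the replacement histones, to which H3f3b and Macroh2a1 gave the most, was 623.2 ± 16.02 CPM in unstimulated and 880.7 ± 17.3 CPM in IFN-β-treated shControl cells, ranges that did not overlap, while the clustered genes' sums did.

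Genes of the cell cycle had the same order of libraries as the histones in part. The summed level of 24 mitosis genes was 641, 532 and 708 CPM in unstimulated shControl replicates 1 to 3 and 449, 337 and 565 CPM in unstimulated shPpargc1b replicates, and it was lower with shPpargc1b within each run, at 0.700, 0.633 and 0.799 times. All 24 had negative fitted values in that comparison, with a median of -0.48, and 3 fell, where 11.1% of all genes fell (Mki67, Ccnb2 and Bub1b, of which the last 2 are named after their values were seen). Mki67, a gene of cycling cells, changed by -0.53 ± 0.14 (adjusted p = 0.0137), and Top2a by -0.48 ± 0.23 and Tpx2 by -0.32 ± 0.16, neither past the threshold. With IFN-β in shControl cells 11 of the 24 fell and 0 rose, where 24.6% of all genes fell. The 40 DNA replication genes, which act in the phase in which clustered histone genes are read, differed less. Their sum was 538.1 ± 50.2 CPM in shControl and 518.4 ± 58.05 CPM in shPpargc1b cells without IFN-β, 2 rose and 0 fell, where 12.4% and 11.1% of all genes did, and the median was -0.10. One of the 2 was Pcna, the DNA polymerase clamp (0.21 ± 0.05, adjusted p = 0.00459), while Rrm1 (-0.32 ± 0.13) and Mcm4 (-0.20 ± 0.09) did not pass. With IFN-β in shControl cells 11 of the 40 fell and 5 rose, against 24.6% and 23.7% of all genes. The part of cell cycle in the histone values was not tested.

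With the knockdown, 1 of 20 genes that make and process histone mRNA rose and 0 fell in unstimulated cells. Under IFN-β 1 rose and 2 fell. Among all genes 12.4% rose and 11.1% fell without IFN-β, and 11.5% and 12.7% with it. Slbp, whose protein binds the stem-loop, averaged 24.1 ± 0.784 CPM with shControl and 22.8 ± 1.60 with shPpargc1b in unstimulated cells (adjusted p = 0.372), and fell with shPpargc1b under IFN-β (-0.18 ± 0.06, adjusted p = 0.032). Npat, the co-activator of clustered histone genes, fell with IFN-β in shControl cells from 35.04 ± 0.623 to 30.04 ± 0.919 CPM (-0.22 ± 0.05, adjusted p = 0.00142). Casp8ap2, which acts in histone mRNA production, was at 38.1 ± 1.40 and 38.5 ± 0.857 CPM (adjusted p = 0.81). Of 20 such genes tested, 3 rose and 8 fell with IFN-β in shControl cells, against 23.7% and 24.6% of all genes. Tut7, which adds uridines to RNA ends, rose by 0.96 ± 0.04 (adjusted p = 2.5e-11) and Cpsf2, a cleavage complex subunit, by 0.52 ± 0.05 (adjusted p = 1.22e-07), while Sympk, a scaffold of that complex, fell by 0.13 ± 0.04 on the log2 scale (adjusted p = 0.0164). Of 21 histone chaperone genes, 5 rose and 9 fell with IFN-β in shControl cells, against 23.7% and 24.6% of all genes. With shPpargc1b 6 rose and 0 fell in unstimulated cells, against 12.4% and 11.1% of all genes. Under IFN-β 3 of these chaperone genes rose and 3 fell with shPpargc1b, against 11.5% and 12.7% of all genes. Daxx, an H3.3 chaperone, rose from 30.2 ± 0.211 to 234 ± 6.47 CPM with IFN-β in shControl cells (2.95 ± 0.05, adjusted p = 4.28e-16). Its partner Atrx fell by 0.20 ± 0.04 (adjusted p = 0.00135), and Rbbp4 changed by 0.05 ± 0.04 (adjusted p = 0.327). Of 4 other RNAs without poly(A) tails, Rpph1 alone could be tested, and with 4.71 ± 3.89 and 3.02 ± 1.37 CPM for shControl and shPpargc1b without IFN-β (adjusted p = 0.405) it gave no precise check of the recovery of such RNAs.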

How the data were processed

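Total RNA was freed of ribosomal RNA by the authors, and read pairs were trimmed and mapped to mm10 (GRCm38). The submitters' processing notes name Trim Galore 0.6.0 and STAR 2.7.8a. The deposited values were raw counts of uniquely mapped read pairs per gene, with no normalization, for 12 libraries (49919648 to 77726101 counts). Gene positions and transcripts came from GENCODE M21 and promoters from RefSeq (GRCm38.p6).

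Counts were filtered with filterByExpr in edgeR 4.0.16 (R 4.3.3; minimum count 10, minimum total 15), which left 18228 genes, and scaled with TMM factors (0.914 to 1.09). A quasi-likelihood fit used all 12 libraries with a mean for each group. Benjamini-Hochberg adjustment ran over every gene tested, with a threshold of 0.05. The script was tested on simulated data. CPM used the TMM-scaled library sizes. Genes named were the 3 with the most counts per histone type, up to 5 called in each direction per comparison, and the 3 most abundant tested genes of each list (replacement histones, histone mRNA processing, histone chaperones, DNA replication, mitosis, clustered histone genes outside the naming rule) with Slbp, Npat, Casp8ap2 and Ppargc1b. Members and lists were chosen with earlier results of these data known. Alternatives were DESeq2 1.42.0 and its size factors, library totals, no filter, a fold limit, only the groups compared, a library code run term and each library left out.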

Additional observations from a re-analysis of the deposited data

Results flagged for a closer look

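Daxx had a smaller rise with IFN-β in shPpargc1b than in shControl cells. Its interaction passed the edgeR test, with a log2 value of -0.43 ± 0.06 (adjusted p = 0.00636), while among the clustered histone genes none passed it.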

How the results depend on the processing

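All medians of the histone genes in the 4 comparisons stayed below 0 under each scaling. Library totals alone moved the median of all genes for IFN-β to -0.27 in shControl and -0.22 in shPpargc1b cells and that of the histone genes to -0.47 and -0.39. They gave 25 and 18 lower histone calls there (48.1% and 34.6% of those tested, against 45.5% and 41.4% of all genes). They also gave 2 lower for the knockdown without IFN-β (3.85%, against 12% of all genes). The H2B sum in IFN-β-treated shControl cells was then 113.8 CPM. With a term for the library code run, lower calls were 21, 15, 16 and 16 (knockdown without and with IFN-β, IFN-β in shControl and in shPpargc1b cells), and 1, 3 and 2 were higher for the knockdown without IFN-β and for IFN-β in shControl and shPpargc1b cells. Libraries of the same run deviated together weakly (r = 0.030 to 0.142 over 18 couples, against -0.144 to 0.051 over 36 of different runs), and for 12 of 12 the closest library of another group was of its own run. The labels carry no replicate numbers and do not say what a run shares, so this blocked fit was not taken as a paired one. Without a filter on low counts, lower calls were 15, 14, 14 and 13 (28.3%, 26.4%, 26.4% and 24.5%). The shares of all 43864 genes then tested were 3.97%, 4.76%, 9.94% and 8.85%. Higher calls were 2 (knockdown without IFN-β), 2 and 1 (IFN-β), and 2 interactions were negative (3.77%, against 0.962% of all genes). The share of all genes called went down in the 4 comparisons. DESeq2 gave 4, 5 and 2 lower calls for both knockdown comparisons and IFN-β in shPpargc1b cells, 1 higher for the knockdown without IFN-β and 1 negative interaction. DESeq2 size factors gave 2 lower for IFN-β in shPpargc1b cells, where 20.4% of all genes fell. Fitting only the groups compared gave 0, 4 and 2 (both knockdown comparisons and IFN-β in shPpargc1b cells). There 10.6%, 11.3% and 19.9% of all genes fell. With a log2 limit of 1, lower calls were 0 in all 4 comparisons. The cause of these shifts was not tested.

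With each library left out, lower calls ranged from 0 to 13 and 1 to 5 for the knockdown without and with IFN-β, from 2 to 10 for IFN-β in shControl and from 2 to 10 in shPpargc1b cells (10 without unstimulated shPpargc1b replicate 2). Over these cases 8.37% to 11.3% and 9.99% to 11.9% of all genes fell for the knockdown. For IFN-β 19.8% to 25.2% and 17.6% to 20.1% fell. For IFN-β in shControl cells the lowest counts were 2 without IFN-β-treated shControl replicate 1 and 3 without its replicate 2 or without unstimulated shControl replicate 3. For the knockdown with IFN-β, 5 were lower without IFN-β-treated shControl replicate 2 or shPpargc1b replicate 3. Higher calls ranged from 0 to 1 for the knockdown without IFN-β and from 0 to 2 for IFN-β in either kind of cells. Of 16 member calls, 4 were kept in each case (H2ac22 and H2bc21 for IFN-β in shControl, H4c1 for IFN-β in shPpargc1b cells, H3c1 for the knockdown with IFN-β). For single genes across all alternatives, 1786 values stayed on the same side of the threshold, 97 gained and 73 lost a call, and 0 called values changed sign.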
